A study of Mus musculus with 8 samples.

Results

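The histone genes of the mouse heart were examined in 8 RNA-seq libraries, 4 from wild-type hearts and 4 from AE3-null hearts, all of male FVB/N animals at an age of 4 months. The AE3-null mice lack a working Slc4a3 gene, whose product trades chloride for bicarbonate across the cardiomyocyte membrane. Members were taken by name: a row of the deposited counts table belonged to the family if its Entrez number maps to a current histone symbol (H1f, H2ac, H2bc, H3c, H4c, H2az, H2ax, H3f) or to an older name beginning with Hist1h to Hist4h or H2af. This gave 83 of 23282 rows, 72 by current symbol and 11 by older name. Of these, 64 are replication-dependent histones, 10 are replacement histones, 7 are germ-cell variants and 2 are pseudogenes. Members were chosen by name, and no measured value enters the definition. The family itself was picked with earlier results on the same counts known, so genotype differences are given as descriptions, with per-gene p-values from a fit over all genes and no test of the family.

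Nucleosomes are built from the core histones H2A, H2B, H3 and H4, and linker histone H1 binds the DNA that enters and leaves them. Replication-dependent genes lie in clusters, are expressed mainly in S phase, lack introns and give mRNAs that end in a conserved stem-loop, bound by SLBP, in place of a poly(A) tail. Replacement histones are made throughout the cell cycle from single, mostly polyadenylated genes and supply chromatin in cells that no longer divide, as most adult cardiomyocytes do. Some clustered genes also give polyadenylated mRNAs in differentiated cells, and how the libraries were selected for RNA is not given in the sources used here.

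The stem-loop was found mostly in the replication-dependent class. Sequences were read from GENCODE M21 transcripts of build GRCm38, a build other than that of the counts, in the sense strand. The motif searched was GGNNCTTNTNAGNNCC with the 6 bases on either side of the 4-base loop required to pair. It was found in 45 of 64 replication-dependent genes (70.3%), in 1 of 10 replacement genes (H2ax), in 1 of 7 germ-cell variants (H1f6) and in 7 of 20242 other protein-coding genes (0.0346%). Those 7 include H2bfm, a histone gene by its symbol that the name rule does not take, and Trim17, with which H2aw shares sequence. The search ran over the whole transcript and not only its end. GENCODE models that end early can miss the stem-loop, so no match says only that these letters are not in the annotated transcript. Members called lower in AE3-null hearts below (H2ac18, H2bc6, H3c14) and others not called (H1f2, H4c8, H2ax) are shown as examples. The stem-loop is in capitals, with 5 flanking bases on each side in lower case.
H1f2: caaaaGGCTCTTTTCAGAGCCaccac
H2ac18: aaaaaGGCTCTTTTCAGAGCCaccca
H2bc6: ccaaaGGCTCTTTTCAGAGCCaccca
H3c14: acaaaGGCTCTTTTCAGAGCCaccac
H4c8: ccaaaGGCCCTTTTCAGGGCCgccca
H2ax: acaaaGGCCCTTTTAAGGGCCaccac
The first 4 of these share 1 stem-loop, the commonest form, which 26 replication-dependent genes carry. H4c8 has the form of 7 genes, with a different base pair in the stem. H2bc4, the H2B gene with the most counts, had no match in its annotated transcript. An AATAAA signal lay in the last 40 bases of an annotated transcript of 8 of 10 replacement genes and 14 of 64 replication-dependent genes, H1f2, H2bc6 and H3c14 among them.

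Promoters also differed in their letters. RefSeq promoter windows (GRCm38.p6) were matched for 59 replication-dependent and 9 replacement genes, and the 250 bases before the start were searched on both strands. CCAAT was found in 81.4% of the replication-dependent windows, against 55.6% of the replacement windows and 37.5% of all genes. TATAAA was found in 45.8%, 11.1% and 14.3%. Among the 20 tested replication-dependent genes with a window, 14 held CCAAT and 6 held TATAAA. The 150 bases before the start are given for a replication-dependent gene that fell (H2ac18, plus strand, chr3:96245347-96245496). They are also given for a replacement gene that was tested and not called (H3f3b, minus strand, chr11:116024505-116024654). These motifs are in capitals, where ATTGG is CCAAT on the other strand.
H2ac18: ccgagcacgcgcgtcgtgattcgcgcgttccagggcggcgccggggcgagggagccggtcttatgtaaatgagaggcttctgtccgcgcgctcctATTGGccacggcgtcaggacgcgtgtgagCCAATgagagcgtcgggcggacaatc
H3f3b: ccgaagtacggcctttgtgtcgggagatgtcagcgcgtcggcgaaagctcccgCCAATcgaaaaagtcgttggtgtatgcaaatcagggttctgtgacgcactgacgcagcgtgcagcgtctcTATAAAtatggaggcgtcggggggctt
The H2ac18 window has CCAAT on both strands, and that of H3f3b, the only replacement window of the 9 with TATAAA, holds both motifs. The same 150 bases of H3c14, a replication-dependent gene that also fell, and of the replacement gene H1f0 held neither motif. No promoter window was matched for H2bc4. A match is a description of letters and not a bound site.

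Libraries held 9133628 to 27078351 counts, AE3-null replicate 2 being the shallowest. Slc4a3 was 383.5 ± 4.60 CPM in the wild-type group (counts scaled to 1000000 per library; SD, n = 4) against 32.9 ± 1.26 CPM in the AE3-null group, so each library matched its label. The 10 genes that define cardiomyocytes summed to 109580 to 118230 CPM, with 2 of 10 called higher. Of 14136 tested genes 915 were called at an edgeR adjusted p under 0.05, which is 6.47%, with 468 (3.31%) called lower and 447 (3.16%) higher in AE3-null hearts. With scaling by total counts alone the split was 361 lower and 528 higher. Wild-type replicate 3 stood apart from its group for many histone values, so results are given with and without it where it matters. It was singled out on these same values, so results without it are not separate support. The sources state 4 mice of each genotype and do not tie a library to a mouse, so the p-values rest on the spread among libraries, which may be technical.

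The summed RNA of replication-dependent histones was lower in every AE3-null library than in any wild-type library, while that of replacement histones overlapped through 1 wild-type library. Over all 64 replication-dependent genes, whether tested or not, summed levels were 237, 231, 202 and 227 CPM in wild-type replicates 1 to 4 and 190, 184, 190 and 193 CPM in AE3-null replicates 1 to 4. The groups did not overlap, and wild-type replicate 3 was the lowest of its group. The AE3-null mean, 189 ± 3.82 CPM (SD, n = 4), was 84.2% of the wild-type mean of 224 ± 15.3 CPM. The mean log2 sums differed by -0.24, and by -0.29 without wild-type replicate 3. The 10 replacement genes summed to 374, 352, 412 and 355 CPM in wild-type and 405, 386, 399 and 378 CPM in AE3-null libraries, with wild-type replicate 3 above every other library. These groups overlapped through wild-type replicate 3, since the other 3 wild-type libraries lay below every AE3-null library. The mean log2 sums of replacement genes differed by 0.07, and by 0.12 without that library.

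The quotient of the sums, which needs no scaling between libraries, was 0.633, 0.656, 0.491 and 0.640 in wild-type and 0.468, 0.475, 0.475 and 0.509 in AE3-null libraries. Wild-type replicate 3 lay inside the AE3-null range, and the other 3 wild-type libraries lay above it. The mean log2 quotients of the genotypes differed by -0.32, and by -0.42 without that library. Within families the same quotient averaged 0.806 ± 0.104 for wild-type H1 against 0.669 ± 0.0389 for AE3-null H1 (SD, n = 4), 0.436 ± 0.0430 against 0.351 ± 0.0182 for H2A, and 0.111 ± 0.0374 against 0.0648 ± 0.0141 for H3. The H2A groups did not overlap. For H1 and H3 wild-type replicate 3, at 0.661 and 0.0556, lay inside the AE3-null range, and the other 3 wild-type libraries lay above it. RNA came from heart tissue, so fewer cells of a type and less RNA per cell cannot be told apart.

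**Figure D1:**
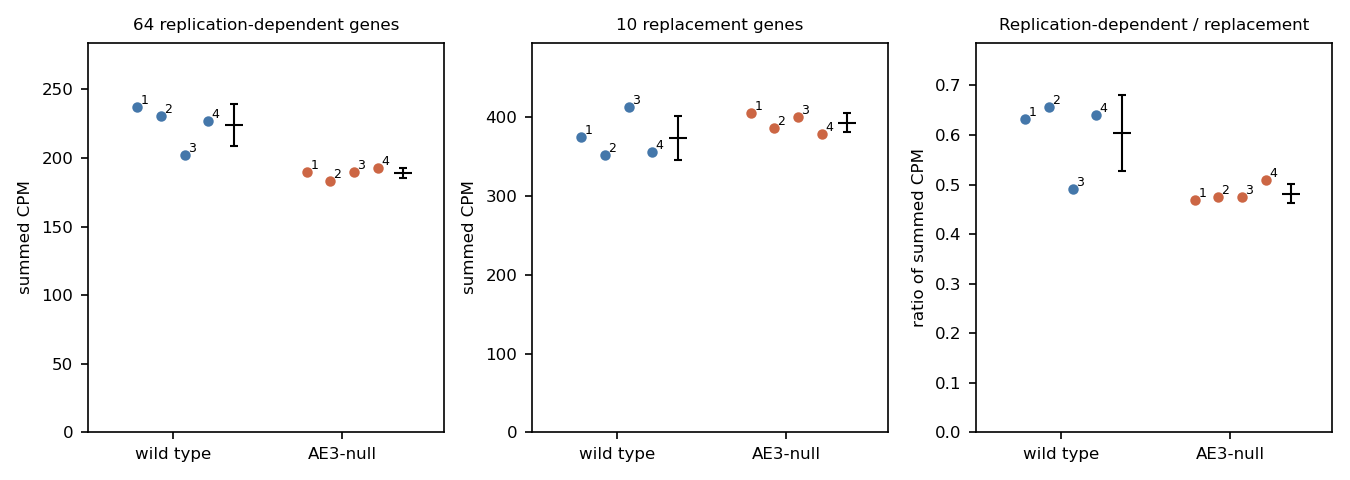
Summed CPM of the 64 replication-dependent genes (left) and the 10 replacement genes (middle) and their quotient (right), by genotype; points are libraries labelled by replicate number and bars are the mean ± SD of 4. All AE3-null points lie below the wild-type points on the left, while wild-type replicate 3 (0.491) falls among the AE3-null points on the right.

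A total of 33 members had enough counts for the test: 22 replication-dependent genes, all 10 replacement genes and the pseudogene Macroh2a3. The remaining 42 replication-dependent genes had at most 74 counts over the 8 libraries, and their summed levels, 5.58 to 7.50 CPM in wild-type and 4.85 to 5.68 CPM in AE3-null libraries, overlapped. Of the 22 tested, 21 had a negative log2 fold change (AE3-null over wild type), against 50.5% of all tested genes. Their median was -0.31 (range -0.77 to 0.05), beside -0.0018 for all tested genes. Among the 22, 5 were called lower, beside 3.31% of all tested genes, and none higher (edgeR; none at an unadjusted p under 0.05, beside 9.79% of tested genes, and none by DESeq2 or limma voom). The count of 5 became 2 without wild-type replicate 1, 2 or 4 or AE3-null replicate 2 or 3. It became 3 without AE3-null replicate 1 or 4, and 9 without wild-type replicate 3. Lower calls over all tested genes moved likewise, from 468 to 906 without wild-type replicate 3. They fell to 193 to 314 without any other single library. At an unadjusted p under 0.05, 12 of the 22 were lower, beside 11.2% of tested genes. In 6 of the 22 all AE3-null libraries lay below all wild-type libraries, beside 6.15% of tested genes, and in none were they all above (6.1% of tested genes). Of the 10 replacement genes 8 had a positive log2 fold change, beside 49.5% of tested genes, and the median was 0.07. Of these 10, 1 was called higher, beside 3.16% of tested genes, and none lower (edgeR; none at an unadjusted p under 0.05, and none by DESeq2 or limma voom). At an unadjusted p under 0.05, 3 of the 10 were higher, beside 9.79% of tested genes. The 1 call became 0 without any single library other than wild-type replicate 3 or AE3-null replicate 2, and 2 other genes were called without wild-type replicate 3. Without that library higher calls over all tested genes rose from 447 to 821.

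The 22 rows are not all separate measurements. H2bc23 and H4bc24, which carries an older H2B name, held the same count in every library, as did the untested pair H2ac23 and H2ac24. Much of the sequence of many members recurs elsewhere. The median share of 50-base stretches found in a transcript of another gene was 42.2% for tested replication-dependent genes and 4.19% for replacement genes. How the authors' counting treated such reads is not given in the sources used here, so the counts of single clustered genes are uncertain where this share is high.

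**Figure D2:**
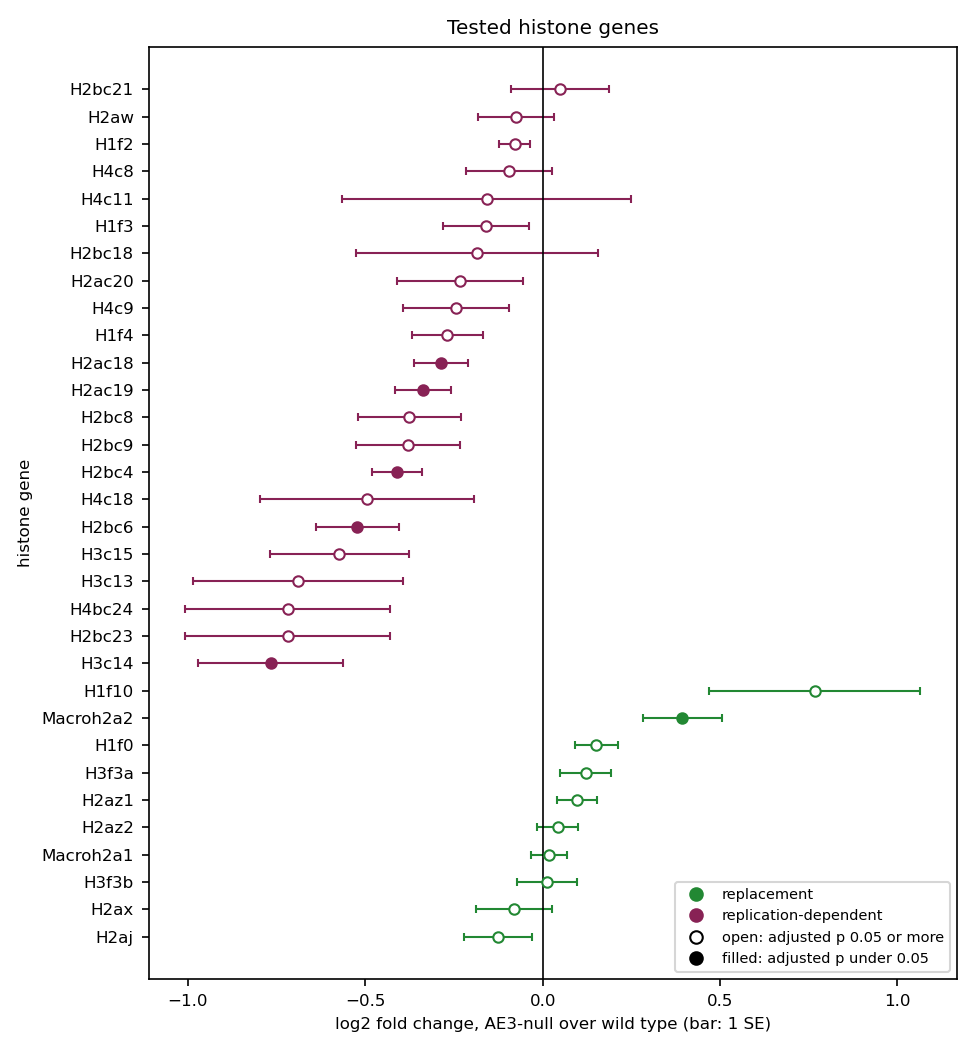
Log2 fold change of AE3-null over wild type (x axis, bar 1 SE) for the 22 tested replication-dependent genes (purple) and 10 replacement genes (green); filled points have an edgeR adjusted p under 0.05. Of the purple points 21 lie left of 0, and 8 of the green points lie right of it.

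The smallest adjusted p-values among members were those of 2 H2B genes of the Hist1 cluster, both lower in AE3-null hearts. H2bc4, a canonical H2B gene, was 27.9, 29.9, 23.6 and 25.9 CPM in wild-type replicates 1 to 4 and 21.1, 20.0, 20.2 and 19.4 CPM in AE3-null replicates. All AE3-null libraries were below all wild-type libraries. H2bc4 fell by 0.41 on the log2 scale (SE 0.070, edgeR adjusted p 0.00247), and it was called under all 16 alternatives tried. H2bc6 was 7.11, 7.02, 5.25 and 7.11 CPM in wild-type and 4.46, 4.63, 4.63 and 4.75 CPM in AE3-null libraries. Here too the groups were apart, with wild-type replicate 3 between the others and the AE3-null libraries. H2bc6 fell by 0.52 (SE 0.117, edgeR adjusted p 0.0136), and its adjusted p was 0.0587 without wild-type replicate 4. Of its stretches 17.9% recur in other transcripts, against 30.1% for H2bc4.

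The other tested H2B genes were not called. H2bc8 averaged 4.21 ± 0.773 CPM in wild-type and 3.22 ± 0.229 CPM in AE3-null libraries (SD, n = 4), with wild-type replicate 3 at 3.15 CPM and the other wild-type libraries above every AE3-null library. H2bc9 was 4.14, 4.91, 3.21 and 4.33 CPM in wild-type and 3.24, 3.02, 2.79 and 3.54 CPM in AE3-null libraries. In both genes wild-type replicate 3 alone of its group lay inside the AE3-null range. Their log2 fold changes were -0.38 (SE 0.146, edgeR adjusted p 0.144) and -0.38 (SE 0.147, edgeR adjusted p 0.139). Both were called without that library (0.0248 and 0.0329), and neither without any other single library (0.187 to 0.340 and 0.163 to 0.332). Counts of H2bc8 were 68, 73, 48 and 84 in wild-type and 76, 29, 57 and 96 in AE3-null replicates. Those of H2bc9 were 67, 72, 49 and 81, and 77, 28, 53 and 96. The genes share sequence, so they may not be separate observations. For the repeated H2bc23 and H4bc24 row the levels were 0.918 to 1.64 CPM in wild-type and 0.215 to 0.895 CPM in AE3-null libraries, apart but low, at log2 -0.72 (SE 0.289, edgeR adjusted p 0.160). In the Hist2 cluster H2bc21 was the only tested replication-dependent gene with a positive value, log2 0.05 (SE 0.138), at 4.03 ± 0.596 CPM in wild-type and 4.09 ± 0.518 CPM in AE3-null libraries (SD, n = 4). H2bc21 shared none of its stretches with another gene and had an AATAAA signal near its end. Of the 8 tested replication-dependent genes with that signal, H2bc23 and H4bc24 among them, 7 had a negative value. Their median log2 fold change was -0.34, with 2 called lower. In the 14 tested genes without the signal the median was -0.31, with 3 called lower, beside 3.31% of all tested genes.

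A pair of near-identical H2A genes of the Hist2 cluster fell. H2ac18 was 28.1, 25.5, 23.9 and 23.8 CPM in wild-type and 21.9, 17.2, 20.5 and 22.1 CPM in AE3-null libraries, and H2ac19 was 23.0, 22.8, 21.2 and 19.2 CPM and 17.9, 15.3, 15.6 and 18.4 CPM. For both genes the groups did not overlap, and AE3-null replicate 2 was the lowest library. H2ac18 fell by 0.29 (SE 0.076, edgeR adjusted p 0.0343) and H2ac19 by 0.34 (SE 0.079, edgeR adjusted p 0.0180). Of their stretches 89.4% and 100% recur in other transcripts, those of each other included, so they are not separate observations. Leaving out any wild-type library but replicate 3, or any AE3-null library, ended the call of H2ac18 (adjusted p 0.0519 to 0.117), as did limma voom (0.0579) and edgeR without robust moderation (0.0521). The call of H2ac19 ended without wild-type replicate 1 or 2 or AE3-null replicate 2 or 3 (0.0501 to 0.0643). H2ac20 (log2 -0.23, SE 0.177) and H2aw of the Hist3 cluster (log2 -0.07, SE 0.106) were not called.

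**Figure D3:**
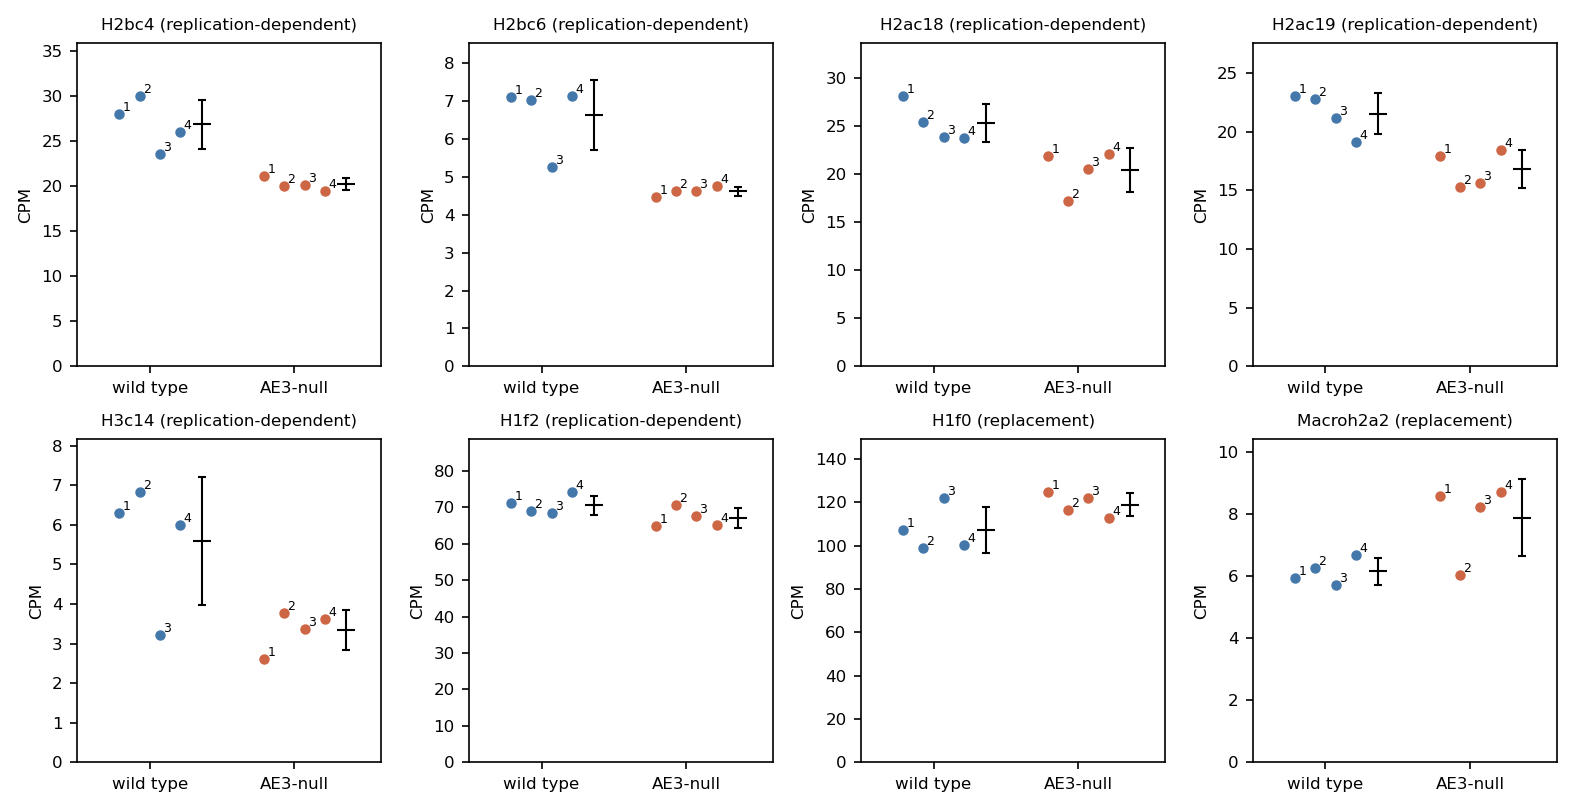
CPM in each library (points, labelled by replicate number; bars mean ± SD of 4) of the 5 replication-dependent genes called lower, of H1f2, and of the replacement genes H1f0 and Macroh2a2. H2bc4, H2bc6, H2ac18 and H2ac19 show no overlap between genotypes, and in H3c14 wild-type replicate 3 (3.21 CPM) lies among the AE3-null libraries.

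Of the replication-dependent families H3 had the lowest median log2 fold change, -0.69 over 3 tested genes, with 1 called. Without AE3-null replicate 1 the log2 fold changes were -0.65 for H3c14, -0.43 for H3c15 and -0.38 for H3c13. H3c14, a canonical H3 gene of the Hist2 cluster, was 6.30, 6.82, 3.21 and 5.99 CPM in wild-type and 2.61, 3.77, 3.37 and 3.61 CPM in AE3-null libraries. Wild-type replicate 3 was inside the AE3-null range. H3c14 fell by 0.77 (SE 0.205, edgeR adjusted p 0.0437). Its adjusted p was 0.0745 to 0.134 when any single library other than wild-type replicate 3 was left out, 0.000180 without that library, and 0.0680 with limma voom. Its sister gene H3c15 was 4.33, 4.29, 2.49 and 4.71 CPM in wild-type and 2.02, 3.23, 2.58 and 3.09 CPM in AE3-null libraries. The log2 fold change of H3c15 was -0.57 (SE 0.196) with an edgeR adjusted p of 0.0966, or 0.00567 without wild-type replicate 3. Without any other single library that adjusted p was 0.119 to 0.282. H3c13 averaged 1.56 ± 0.352 CPM in wild-type and 1.03 ± 0.406 CPM in AE3-null libraries (SD, n = 4). AE3-null replicate 1 was lowest for all 3 genes, and H3c13 was at -0.69 (SE 0.295, edgeR adjusted p 0.189). All 3 share most of their sequence, 63.5% to 100% of stretches, and reads can be split among them. Over the 12 replication-dependent H3 genes the sums were 14.3, 15.0, 7.68 and 14.3 CPM in wild-type and 5.64, 9.26, 8.05 and 8.69 CPM in AE3-null libraries.

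Replication-dependent H4 and H1 genes were not called. The H4 sum over 13 genes averaged 10.7 ± 0.287 CPM in wild-type and 9.31 ± 1.02 CPM in AE3-null libraries (SD, n = 4). The lowest wild-type library, at 10.4 CPM, was above the highest AE3-null library, at 10.2 CPM. Wild-type replicate 3, lowest of its group for H3, was the highest for H4. The H4 gene with the most counts, H4c8, was 4.08, 4.50, 4.66 and 4.01 CPM in wild-type and 4.42, 3.66, 3.89 and 3.94 CPM in AE3-null libraries. H4c8 had a log2 fold change of -0.09 (SE 0.120, edgeR adjusted p 0.736). Among the linker histones H1f2 was 71.1, 68.8, 68.3 and 74.0 CPM in wild-type and 64.8, 70.6, 67.6 and 65.0 CPM in AE3-null libraries. The groups overlapped, with a log2 fold change of -0.08 (SE 0.045, edgeR adjusted p 0.331). H1f2 held more counts than any other replication-dependent gene, and without it the difference in the class sum grew from log2 -0.24 to -0.33. H1f4 was 10.75, 9.20, 8.33 and 11.1 CPM in wild-type and 7.92, 7.65, 8.74 and 8.36 CPM in AE3-null libraries. Wild-type replicate 3 lay inside the AE3-null range. H1f4 was at -0.27 (SE 0.101) with an edgeR adjusted p of 0.127, or 0.0257 without that library. Without any other single library that adjusted p was 0.135 to 0.367. Of the H1f4 stretches 32% recur in other transcripts, those annotated to H2bc6 among them. H1f3 was at -0.16 (SE 0.120).

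By family, the AE3-null mean of the summed replication-dependent levels was 93.1% of the wild-type mean for H1, 82.5% for H2A, 76.5% for H2B, 61.8% for H3 and 86.8% for H4. The sums did not overlap between genotypes for H2A, H2B and H4, and did for H1 and H3. By location, the 51 genes of the Hist1 cluster summed to 146 ± 8.57 CPM (SD, n = 4) in wild-type and 125 ± 1.70 CPM in AE3-null libraries, and the 10 genes of the Hist2 cluster to 66.0 ± 5.69 and 51.6 ± 4.11 CPM. Neither cluster's sums overlapped. In the 16 tested genes with an annotated stem-loop the median log2 fold change was -0.28, with 4 called lower, and in the 6 without it -0.55, with 1 called lower, beside 3.31% of all tested genes. With the repeated row of H2bc23 and H4bc24 counted once, a choice made after the values were seen, the median of the 5 remaining was -0.41.

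**Figure D4:**
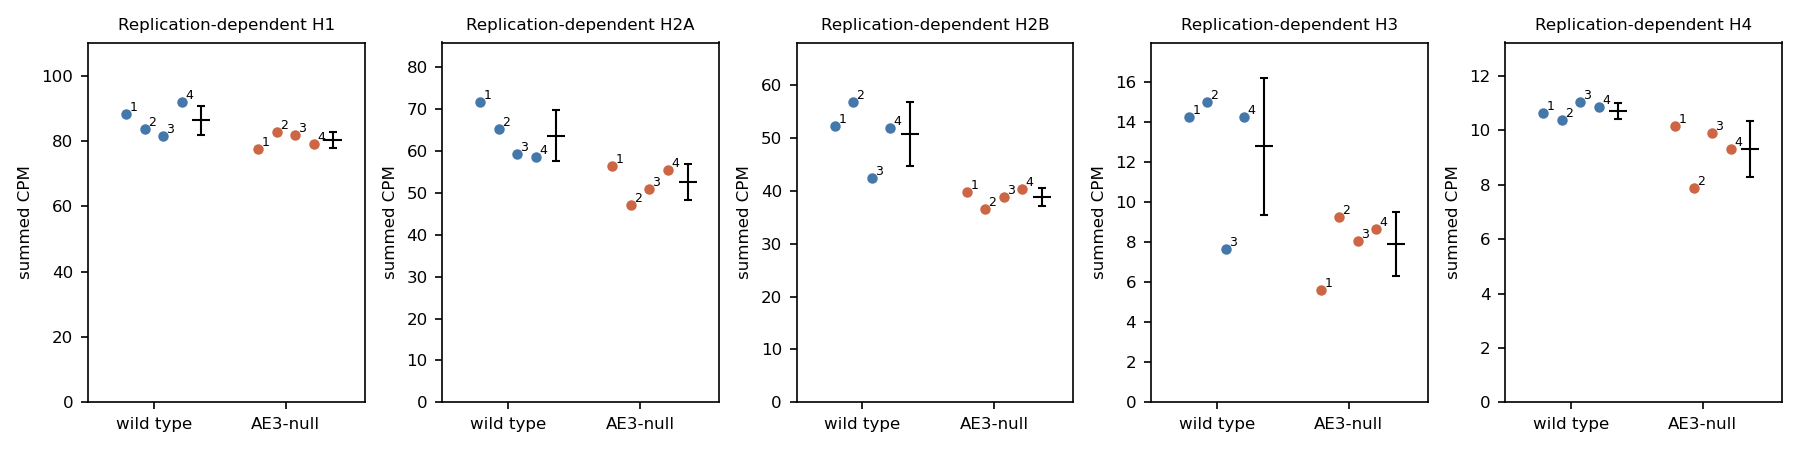
Summed CPM of the replication-dependent genes of each histone family by genotype; points are libraries labelled by replicate number and bars are the mean ± SD of 4. The H2A, H2B and H4 panels show no overlap, and wild-type replicate 3 lies at 7.68 CPM in the H3 panel, away from the other wild-type libraries.

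Among replacement histones, macroH2A was the only family with a called gene. Macroh2a2, which encodes an H2A variant with a large extra domain associated with silent chromatin, was 5.93, 6.27, 5.71 and 6.69 CPM in wild-type and 8.59, 6.03, 8.21 and 8.69 CPM in AE3-null libraries. AE3-null replicate 2 lay inside the wild-type range. Macroh2a2 rose by log2 0.39 (SE 0.112, edgeR adjusted p 0.0459), but the call ended in 11 of 16 alternatives (adjusted p 0.0142 to 0.161 over the 16). These were DESeq2 (0.0646), limma voom (0.0523), edgeR without robust moderation (0.0601), the replicate block (0.0542) and each left-out library except AE3-null replicate 2 (0.0502 to 0.161). Its paralogue Macroh2a1 was at log2 0.02 (SE 0.052), at 38.6 ± 1.43 CPM in wild-type and 38.9 ± 1.86 CPM in AE3-null libraries (SD, n = 4). The related pseudogene Macroh2a3 averaged 1.65 ± 0.201 CPM in wild-type and 2.21 ± 0.414 CPM in AE3-null libraries (SD, n = 4), at log2 0.41 (SE 0.192, edgeR adjusted p 0.238).

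The replacement linker histone H1f0, typical of differentiated cells, was 107, 99.1, 122 and 100 CPM in wild-type and 125, 116, 122 and 113 CPM in AE3-null libraries. Apart from wild-type replicate 3 the wild-type libraries were below all AE3-null libraries. H1f0 had a log2 fold change of 0.15 (SE 0.060) with an edgeR adjusted p of 0.166, and of 0.22 (adjusted p 0.00303) without wild-type replicate 3. The edgeR adjusted p of H1f0 was 0.179 to 0.363 without any other single library. The linker variant H1f10 was 0.618, 0.477, 1.38 and 0.695 CPM in wild-type and 1.64, 1.40, 1.37 and 1.03 CPM in AE3-null libraries. Its levels were low, and again wild-type replicate 3 alone of its group reached the AE3-null range. H1f10 was at log2 0.77 (SE 0.298, edgeR adjusted p 0.143), and at 1.15 (adjusted p 0.0143) without that library. Its edgeR adjusted p was 0.136 to 0.341 without any other single library.

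The H3.3 genes, whose product replaces canonical H3 in non-dividing cells, were not called. H3f3b was 89.0, 81.2, 106 and 84.9 CPM in wild-type and 88.8, 93.0, 99.2 and 84.0 CPM in AE3-null libraries, with wild-type replicate 3 the highest. The log2 fold change of H3f3b was 0.01 (SE 0.084), and it lay between -0.03 and 0.10 with 1 library left out. H3f3a was at 0.12 (SE 0.073, edgeR adjusted p 0.368). The H2A.Z genes H2az1 and H2az2, whose product marks promoters, were at 0.10 (SE 0.057) and 0.04 (SE 0.058). H2ax, which is phosphorylated at DNA breaks, was at -0.08 (SE 0.106), and the variant H2aj at -0.13 (SE 0.096). None of these 6 was called by edgeR, DESeq2 or limma voom, and none had an unadjusted p under 0.05. The 7 germ-cell variants summed to 0.221 to 0.539 CPM in each library, and 3 of them had no count.

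Genes that make and deposit histones were read from lists set by function. Of 28 tested genes of histone mRNA transcription and processing none was called by edgeR, DESeq2 or limma voom, with a median of 0.01. At an unadjusted p under 0.05 by edgeR 5 of the 28 were lower, beside 11.2% of tested genes, and none higher. Slbp, which binds the stem-loop, had 12.2 ± 0.714 CPM in wild-type libraries and 13.2 ± 0.872 CPM in the AE3-null group (SD, n = 4), or log2 0.09 (SE 0.078). Npat, which activates clustered histone genes, was at log2 0.08 (SE 0.082). The smallest p in this list was that of Srrt, a cap-complex partner (log2 -0.16, edgeR adjusted p 0.0670). None of 34 histone chaperone and deposition genes was called by edgeR, DESeq2 or limma voom, with a median of -0.0024. Of these 34, 4 were lower at an unadjusted p under 0.05 by edgeR, beside 11.2% of tested genes, and none higher. Hira and Daxx, chaperones of H3.3, were at log2 -0.0007 (SE 0.057) and -0.12 (SE 0.067).

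Cell cycle genes gave 1 call among 40 tested, with a median of -0.06 (2 calls by DESeq2 and 1 by limma voom). The edgeR call was lower, beside 3.31% of all tested genes. At an unadjusted p under 0.05 by edgeR 3 of the 40 were lower, beside 11.2% of tested genes, and none higher. The cyclin Ccnd2, which drives entry into S phase, had 172 ± 14.3 CPM in wild-type and 137 ± 6.17 CPM in AE3-null libraries (SD, n = 4) and fell by 0.33 on the log2 scale (SE 0.054, edgeR adjusted p 0.00251), and Ccnd1 was at -0.23 (adjusted p 0.0698). The proliferation markers Mki67 and Top2a were present but spread widely between libraries, from 6.92 to 15.4 CPM and 3.27 to 7.97 CPM. AE3-null replicate 2 was the highest for both, and the fold changes were -0.15 (SE 0.271) and -0.12 (SE 0.277). Pcna, the sliding clamp of DNA replication, was at log2 -0.03 (SE 0.050). Bub1b averaged 1.44 ± 0.678 CPM in wild-type and 0.765 ± 0.0932 CPM in AE3-null libraries (SD, n = 4). Its level was low, and wild-type replicate 2, at 0.477 CPM, lay below every AE3-null library. Bub1b stood at log2 -0.95 (SE 0.329), a fall not called by edgeR (adjusted p 0.101). Ccne1 went the other way, at log2 0.49 (SE 0.281), and was not called either (adjusted p 0.336). The list also holds the cell cycle inhibitors Cdkn1a, Cdkn1b and Cdkn1c. Its summed level was 622 to 655 CPM in wild-type and 558 to 583 CPM in AE3-null libraries. Without Ccnd1 and Ccnd2, a choice made after their values were seen, the sums overlapped (357 to 376 and 341 to 361 CPM).

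The summed levels of 3 marker lists did not overlap between genotypes, as those of the replication-dependent genes did not. The 10 red blood cell genes summed to 5311 to 8459 CPM in wild-type and 3690 to 5097 CPM in AE3-null libraries, and the 9 tested had a median log2 value of -0.60. Of these 9, 8 were lower at an unadjusted p under 0.05 by edgeR, and 7 were called by DESeq2 and 7 by limma voom. The 12 endothelial genes summed to 1892 to 2097 and 1698 to 1752 CPM, with 5 of 12 called lower, Pecam1 at log2 -0.26 among them. The 9 atrial cardiomyocyte genes summed to 3103 to 3653 and 4116 to 4735 CPM, with 8 of 9 called higher. Sums overlapped for the macrophage (490 to 590 CPM over all libraries), lymphocyte (14.8 to 21.2), neutrophil (2.48 to 4.43, with Camp at 0), fibroblast (4189 to 4637) and smooth muscle and pericyte (3687 to 4135) lists. By edgeR 3 of 12 fibroblast genes were called lower, and 2 of 11 smooth muscle and pericyte genes higher and 1 lower. Over all tested genes 3.31% were called lower and 3.16% higher. At an unadjusted p under 0.05, 11.2% of tested genes were lower and 9.79% higher. None of 13 macrophage genes was called (1 higher and 2 lower at an unadjusted p under 0.05, 1 call by DESeq2 and none by limma voom). None of the 2 lymphocyte and 2 neutrophil genes tested was called or had an unadjusted p under 0.05 by edgeR, nor was any called by DESeq2 or limma voom. The part of these cell types in the histone values was not tested.

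Properties of the RNA were set beside the same values. Of 218 tested non-histone genes whose longest GENCODE transcript has at most 800 bases, 3 were called higher and 4 lower. Over all tested genes 3.16% were called higher and 3.31% lower. The median log2 fold change of the 218 was 0.005. By the same measure H2ac18 and H2ac19 are also short, at 586 and 528 bases. H2bc4, H2bc6, H3c14 and H1f2 are longer, at 1156, 2506, 1825 and 1560 bases, so the 218 are not like them in length. Of 31 RNAs listed as lacking a poly(A) tail 17 were in the table. Of these, 2 passed the filter, the long nuclear RNAs Malat1 (log2 0.02, SE 0.040) and Neat1 (log2 -0.08, SE 0.226). Neither was called or had an unadjusted p under 0.05 by edgeR, and neither was called by DESeq2 or limma voom. Among the untested RNAs of this list, Rmrp was 0 to 0.0535 CPM and Rpph1 0 to 0.215 CPM over all libraries. The part of RNA selection in the histone values was not tested.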

How the data were processed

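Read counts per gene, 1 column per library with no normalization, were used as the authors deposited them. The submitters' processing notes name bcl2fastq, CASAVA 1.8, TopHat, the mouse build mm9 and DESeq. For the counting program, strand setting, annotation and read length the sources used here give nothing. Entrez numbers were matched to RefSeq gene names of assembly GRCm38.p6 (23185 of 23282), used for names only. Genes were kept with filterByExpr (minimum count 10), scaled by TMM and tested in edgeR by quasi-likelihood (robust, no covariates), and p-values were adjusted by Benjamini-Hochberg over all 14136 tested genes. CPM use TMM-scaled library sizes. A standard error is the size of the log2 fold change over the root of its F value.

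The members and lists were chosen with earlier results of these data known. Genes named are Slc4a3, histones called or with an unadjusted p under 0.05, the most counted of each class and family, and up to 4 called or 2 uncalled genes of a list; others were chosen after their values were seen. For the red blood cell list edgeR calls are not reported here. Alternatives were RLE or total-count scaling, no filter or a minimum count of 50, DESeq2, limma voom, edgeR without robust moderation, a block for the replicate number, and leaving out single libraries. Counting repeated rows once was added after the data were seen. The scripts were also tested on simulated data. No library was a copy: chi-square values per gene between libraries of a genotype were 2.64 to 7.95. Analyses ran in R 4.3.3 with DESeq2 1.42.0, edgeR 4.0.16 and limma 3.58.1.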

Additional observations from a re-analysis of the deposited data

Results flagged for a closer look

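In 82 groups of 4 libraries checked for a library far from the rest, 8 had one. Chance gives about 1 in 20 for a group taken alone. The groups are not independent, since the sums and quotients hold the single genes, so the 8 cannot be read against that rate. Wild-type replicate 3 accounted for 4: H2bc6 was 5.25 CPM there against 7.02 to 7.11 CPM in the other wild-type libraries, summed replication-dependent H3 was 7.68 against 14.3 to 15.0 CPM, the Hist1 cluster summed to 133 against 149 to 151 CPM, and the quotient of replication-dependent to replacement sums was 0.491 against 0.633 to 0.656. The same quotient was 0.509 in AE3-null replicate 4 against 0.468 to 0.475 in the other AE3-null libraries. H3c13 was 0.421 CPM in AE3-null replicate 1 against 1.18 to 1.29 CPM. The repeated row of H2bc23 and H4bc24 was 0.215 CPM in AE3-null replicate 2, the shallowest library, against 0.842 to 0.895 CPM, and counts as 1 observation.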

How the results depend on the processing

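The median log2 fold change stayed negative for replication-dependent genes (-0.39 to -0.29 over 17 alternatives) and positive for replacement genes (0.05 to 0.11 over 16). The number of replication-dependent genes called lower was 5 under both other scalings, both other filters, DESeq2 and the replicate block, 4 with edgeR without robust moderation and 3 with limma voom. It ranged from 2 to 9 with 1 library left out, 9 without wild-type replicate 3. The number of replacement genes called higher was 0 with DESeq2, limma voom, edgeR without robust moderation and the replicate block, and 0 to 2 with 1 library left out. Over all tested genes, leaving out 1 library gave 214 to 821 called higher and 193 to 906 called lower. Both were highest without wild-type replicate 3. The fold change of H3f3b ranged from -0.034 to 0.10 with 1 library left out, turning to -0.034 without wild-type replicate 2, -0.02 without wild-type replicate 4 and -0.03 without AE3-null replicate 3. The log2 difference in the replication-dependent sum was -0.33 without H1f2. The causes were not tested. Replicate numbers were not used to pair libraries in the main fit. Deviations of same-numbered libraries correlated at 0.217, -0.00512, 0.0537 and 0.011, and those of different numbers at -0.195 to 0.0828. The block gave 485 higher and 517 lower calls, beside 447 and 468 in the main fit. These values do not settle whether the numbers pair the libraries.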
